A study of Mus musculus with 7 samples.

Results

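Transcripts of 8 cadherin genes were followed in the ovarian stroma of mice with and without progesterone receptor. The genes were Cdh15, Cdh1, Cdh2, Cdh3, Cdh4, Cdh6, Cdh11 and Cdh13, taken by name from a list that leaves out the endothelial cadherin Cdh5. They are 8 of 52230 genes in the table, and all 8 were among the 19233 genes that passed a filter on low counts. The list was drawn up with the difference between genotypes already known, so the members' values for that difference are a description and carry no p-value.

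The libraries held ovarian tissue depleted of granulosa cells by puncture of the follicles. WT libraries (n = 4, replicates 1 to 4) came from PGR +/+ females and KO libraries (n = 3, replicates 2 to 4) from PGR -/- females of the same PRKO line (Pgrtm1Bwo), in which the germline disruption of Pgr reaches every tissue. All females were immature, 21 to 27 days old by the extraction protocol and 21 to 25 by the design text, and all received 5 IU PMSG (eCG), then 5 IU hCG 44 h later, with ovaries taken 8 h after hCG. Each library was pooled from 3 mice, so the spread between libraries is a spread between pools. The libraries held 47.4 M to 63.4 M reads. Pgr itself, on chromosome 9, was lower in each KO library (6.13 to 7.56 CPM) than in each WT library (16.8 to 31.0 CPM), where CPM, counts normalised to 1 M reads, is relative to the TMM-scaled size of the library. Granulosa transcripts remained in the punctured tissue, where 10 granulosa markers summed to between 2400 and 4042 TPM, with 5 lower and 5 higher estimates in KO and 0 called by edgeR, DESeq2 or limma-voom (0 with an unadjusted p under 0.05 in edgeR). TPM is a level scaled by transcript length and library total.

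Cadherins are membrane proteins that bind their like on the neighbouring cell in the presence of calcium. Inside the cell, the tail of a classical cadherin holds beta-catenin (Ctnnb1) and p120-catenin (Ctnnd1), and alpha-catenin links the complex to actin. Cdh15, or M-cadherin, is best known from satellite cells and myoblasts of skeletal muscle. Cdh1 (E-cadherin) joins epithelial cells, Cdh2 (N-cadherin) joins neurons, heart muscle and granulosa cells, Cdh3 is P-cadherin and Cdh4 is R-cadherin. Cdh6 (K-cadherin) and Cdh11 (OB-cadherin, of mesenchyme and bone) are type II cadherins, and Cdh13 (T-cadherin) lacks the tail and is held in the membrane by a lipid anchor.

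The promoter of Cdh15 is shown because this gene had the largest difference between genotypes of the 8. The RefSeq table has a promoter for 2 of the 8 members, Cdh15 and Cdh6. The Cdh15 window covers 250 bases before and 50 bases from the start of the gene, at chr8:122848124-122848423 of GRCm38.p6, plus strand, an older build than that of the expression files. Capitals mark the E-box CANNTG, the motif bound by basic helix-loop-helix factors, among them the myogenic factors.
Cdh15 promoter: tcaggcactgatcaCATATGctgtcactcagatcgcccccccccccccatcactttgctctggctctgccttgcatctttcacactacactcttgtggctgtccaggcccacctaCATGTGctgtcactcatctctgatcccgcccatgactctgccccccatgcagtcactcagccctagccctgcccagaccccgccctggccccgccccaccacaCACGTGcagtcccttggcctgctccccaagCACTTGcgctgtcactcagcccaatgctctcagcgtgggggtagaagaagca
The window held 4 E-boxes, CATATG at −236, CATGTG at −135, CACGTG at −32 and CACTTG at −2 from the start of the gene. The E-box reads the same on both strands, and no 2 of the 4 overlapped. At least 1 E-box was found in 72.3% of 32851 RefSeq promoters of the same length, and at least 4 in 6.49%. The letters TGTTCT, the core of a progesterone response element, were found on neither strand of the Cdh15 window and in 19.0% of all promoters. The full palindromic element was not found there either, and 0.475% of promoters held it. These are matches of letters, and no binding was measured.

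The 8 genes differed widely in level. Cdh11 had the highest level at 73.2 ± 6.83 TPM (SD, n = 7 libraries), followed by Cdh2 at 31.9 ± 5.14 TPM and Cdh3 at 15.6 ± 2.62 TPM. These 3 genes held 96.4% of the summed TPM of the 8. For scale, the endothelial Cdh5 stood at 81.5 ± 6.46 TPM. The other 5 members lay far lower, with Cdh15 at 1.72 ± 1.21, Cdh13 at 1.16 ± 0.315, Cdh1 at 0.806 ± 0.153, Cdh6 at 0.404 ± 0.0872 and Cdh4 at 0.399 ± 0.0573 TPM. E-cadherin, the cadherin of epithelia, was thus a minor transcript in this tissue.

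**Figure D1:**
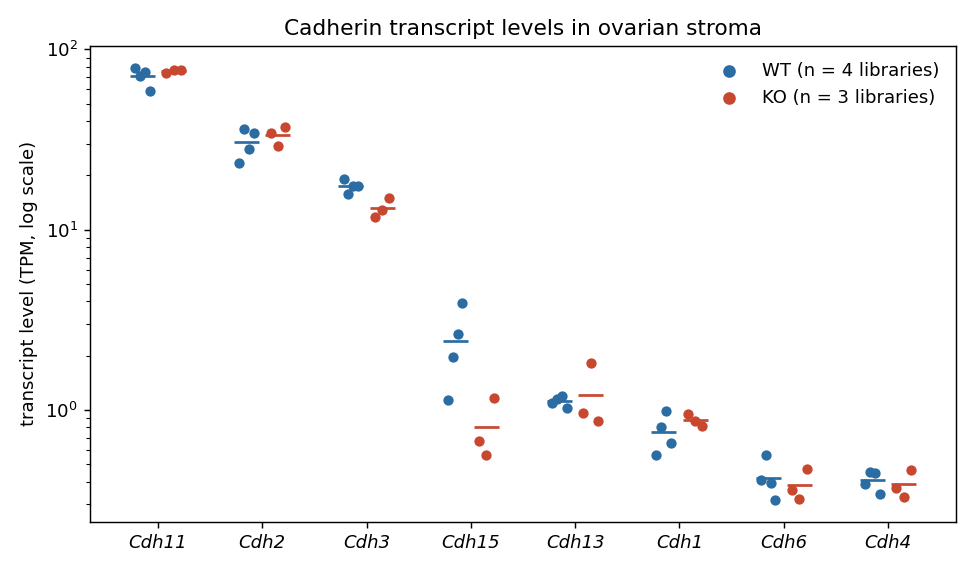
Transcript level in TPM on a log scale for each of the 8 cadherins, ordered by their mean over all libraries, with a point for each WT (blue) or KO (red) library and a line at each group mean. Cdh11, Cdh2 and Cdh3 sit at 11.8 TPM or higher in every library, and the other 5 genes sit at 3.90 TPM or lower.

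Neighbours in the order of levels were then compared. That order was set by mean TPM over the same 7 libraries, so the pairs came from the data tested, and the p-values do not allow for this. The choice of genes did not use levels between genes, but the mean level of Cdh15 includes its difference between genotypes. The log2 ratio of TPM was compared with 0 by a two-sided exact sign-flip permutation test over the 7 libraries, and p-values were adjusted over 7 pairs. Of these pairs, 5 differed, each with the same gene higher in 7 of 7 libraries (exact permutation test, p = 0.0156, the smallest that 7 libraries allow, adjusted p = 0.0219). Cdh11 stood 2.31-fold above Cdh2, Cdh2 2.04-fold above Cdh3 and Cdh3 10.98-fold above Cdh15. Cdh13 stood 1.42-fold above Cdh1 and Cdh1 1.97-fold above Cdh6. No difference was shown for the remaining pairs. Cdh15 exceeded Cdh13 in 5 of 7 libraries, with a log2 TPM ratio of 0.30 ± 1.17 (SD, n = 7; exact permutation test, adjusted p = 0.602). That comparison mixed the genotypes and describes neither alone. Mean Cdh15 was 2.41 TPM beside 1.12 TPM for Cdh13 in WT, and 0.801 beside 1.22 TPM in KO. Cdh6 exceeded Cdh4 in 3 of 7 libraries, with a log2 TPM ratio of 0.0040 ± 0.153 (SD, n = 7; exact permutation test, adjusted p = 0.953). Within WT, Cdh15 ranked 4th of the 8 at 2.41 ± 1.17 TPM (SD, n = 4), and within KO it ranked 6th at 0.801 ± 0.317 TPM (SD, n = 3), below Cdh13 and Cdh1.

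The question put to the data was how the transcripts of a tissue without progesterone receptor differed from those of WT 8 h after hCG. Over the 8 cadherins, 5 had lower and 3 had higher estimates in KO, with a median log2 fold change of −0.17. The largest difference was that of Cdh15, lower in KO, and the next was that of Cdh3, also lower. Over all tested genes the median was −0.0010, and 50.3% were lower. With a gene called where its adjusted p was no higher than 0.05 and its log2 fold change 0.5 or more in either direction, edgeR's quasi-likelihood test called 0 of the 8, beside 0.0104% of all tested genes (2 genes, Tcf23 and Sorl1). An unadjusted p under 0.05 was found for 2 of 8 (Cdh3 and Cdh15), beside 8.94% of all genes. DESeq2 called 1 of 8 (Cdh15), beside 0.749% of all genes, and limma-voom called 0 of 8, beside 0.0104%. The genotypes did not overlap in CPM for 2 of 8 (Cdh3 and Cdh15), beside 9.05% of all genes, nor in TPM for 1 of 8 (Cdh3), beside 8.13%. The members were chosen on this contrast, so nothing is read from these counts.

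**Figure D2:**
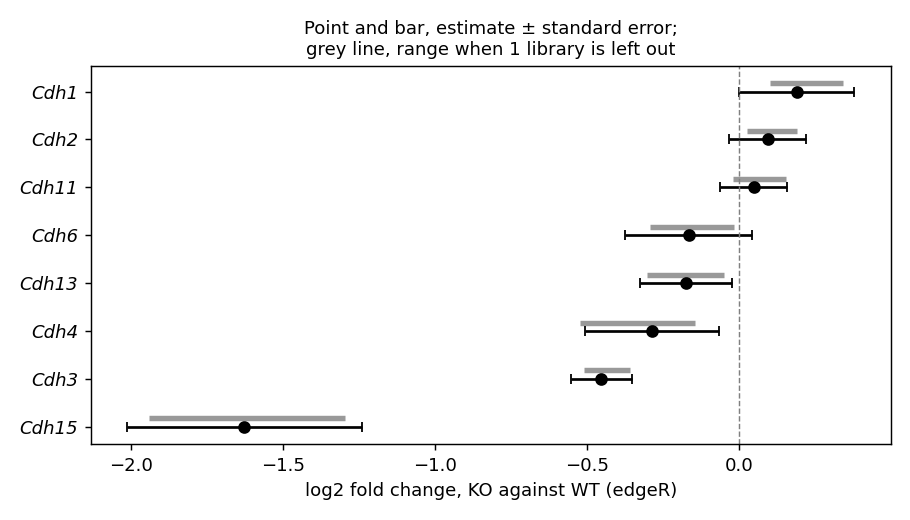
Log2 fold change of KO against WT from edgeR for the 8 cadherins (black point, bar of 1 standard error), with the range over fits that each leave out 1 of the 7 libraries (grey line). Cdh15, at −1.63, has a range of −1.94 to −1.30, and the other genes lie between −0.45 and 0.19.

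Cdh15 read 2.57, 3.97, 5.43 and 7.99 CPM in the WT libraries (replicates 1 to 4, the order used throughout) and 1.42, 1.17 and 2.24 CPM in the KO libraries (replicates 2 to 4). Each of the 3 KO values was below each of the 4 WT values, but the gap between KO replicate 4 and WT replicate 1 was only 0.332 CPM. The mean was 4.99 ± 2.31 CPM over the WT libraries (SD, n = 4) and 1.61 ± 0.562 CPM over the KO libraries (SD, n = 3), a level of 32.3% of WT or 3.10-fold lower. The log2 fold change was −1.63 (standard error 0.386), and 34 of the 19233 tested genes had a lower one. It was the only member with a difference of more than 2-fold, and the list was chosen with this value known. Fewer cells that express the gene and less RNA per cell cannot be told apart in such bulk tissue.

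The reads behind these values were few. Cdh15 had 134, 200, 306 and 497 reads in the WT libraries and 82, 56 and 130 in the KO libraries. The 95% Poisson interval, which covers counting error only, was 2.16 to 3.05 CPM for WT replicate 1 and 1.87 to 2.66 CPM for KO replicate 4, so these 2 libraries were not separated by counting error. On the TPM scale the groups overlapped. Cdh15 stood at 1.14, 1.96, 2.65 and 3.90 TPM in WT and at 0.677, 0.565 and 1.16 TPM in KO, with KO replicate 4 just above WT replicate 1.

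WT libraries differed widely among themselves in Cdh15. The highest WT library had 3.10 times the CPM of the lowest. That is a ratio of single libraries, whereas the 3.10-fold difference between genotypes is a ratio of group means. The SD of log2 CPM over the 4 WT libraries was 0.69, beside a log2 fold change of −1.63. The other 7 cadherins had a WT SD of 0.10 to 0.34. Among 4467 tested genes with a mean of 1 to 10 CPM, the median WT SD was 0.20, and 2.44% had one as large as that of Cdh15. Without WT replicate 4, the highest, the log2 fold change of Cdh15 was −1.30, and without KO replicate 4 it was −1.94. The summed level of 5 theca and steroidogenic markers ranked the WT libraries as Cdh15 did, with values for replicates 1 to 4 of 7674, 8954, 9374 and 10730 TPM. It ranged from 7080 to 8719 TPM in KO. All 5 of these markers had lower estimates in KO, and edgeR, DESeq2 and limma-voom called 0. In edgeR, 1 (Star) had an unadjusted p under 0.05, beside 8.94% of all tested genes. The sum was mostly Cyp11a1 and Hsd3b1, steroidogenic enzymes that luteinising granulosa cells also express. Within WT, the markers more particular to theca did not follow Cdh15. Cyp17a1, for androgen synthesis, stood at 1012, 845.7, 1082 and 430.0 TPM in the WT libraries. The hormone gene Insl3 stood there at 153.2, 136.9, 154.7 and 70.2 TPM. Both were lowest in WT replicate 4, where Cdh15 was highest. In KO, Cyp17a1 ranged from 390.2 to 644.0 TPM and Insl3 from 84.3 to 107.7 TPM. Their estimates were lower in KO (log2 fold change −0.67 and −0.49), as that of Cdh15 was. Within WT, the granulosa sum, mostly Inha, was lowest in replicate 4 (2400 TPM) and highest in replicate 1 (3355 TPM). Fshr, Inha, Inhba, Inhbb, Cyp19a1, Hsd17b1 and Serpine2 were lowest in WT replicate 4 as well. Among the WT libraries, Foxl2 and Nr5a2 were highest there (45.9 and 101.2 TPM), and Amh was lowest in replicate 2 (54.0 TPM). In CPM, Foxl2 read 90.9, 82.2, 87.7 and 94.1 in the WT libraries. The part of either list in the Cdh15 values was not tested.

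**Figure D3:**
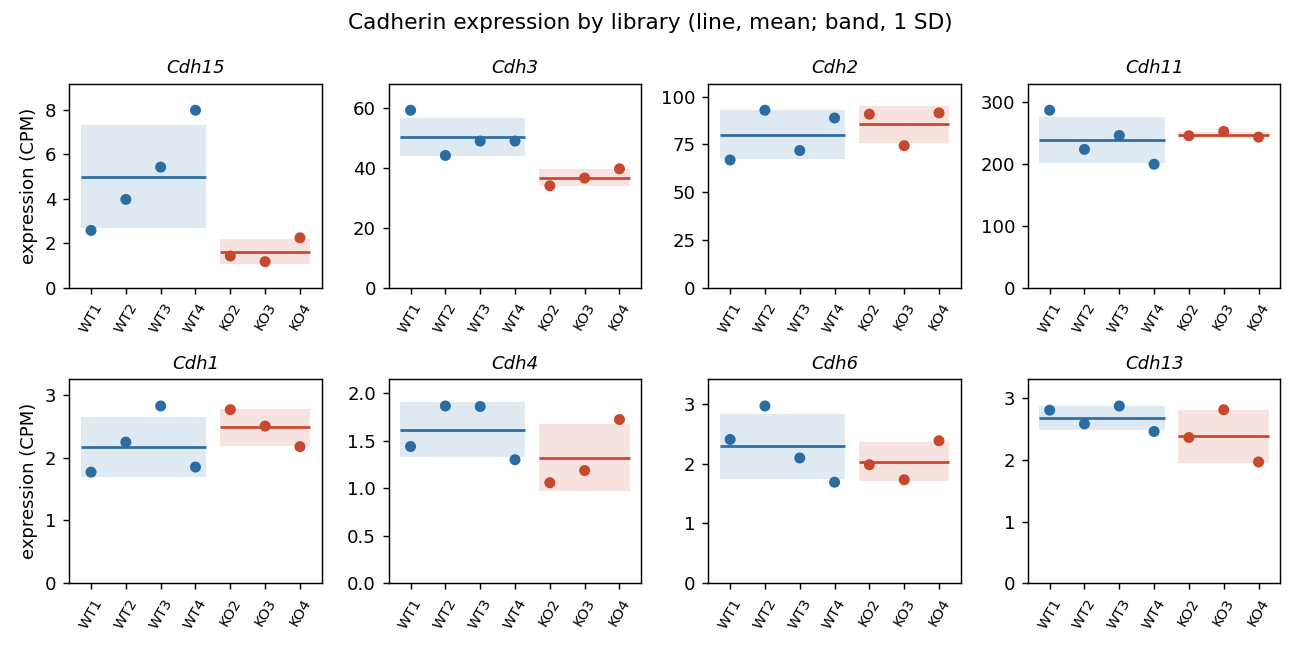
Expression in CPM of each cadherin in the 4 WT (blue) and 3 KO (red) libraries, 1 panel per gene with its own axis from 0, with a line at the group mean and a band of 1 SD. Cdh15 spans 2.57 to 7.99 CPM in WT and 1.17 to 2.24 CPM in KO, and Cdh3 is the other gene whose groups do not overlap on this scale.

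Markers of skeletal muscle, the tissue for which Cdh15 is known, were absent or low. Of 8 muscle lineage markers, Pax7 and Myod1, which define satellite cells and myoblasts, had 0 reads in all 7 libraries. At this depth that allows a level of up to 0.0476 to 0.0637 per 1 M reads of a library. This bound is 3 reads, covers counting error only and is without TMM scaling. The early myogenic factor Myf5 was present in every library, at 0.708 to 1.06 TPM on 53 to 78 reads, and Mylpf, a muscle myosin light chain, stood at 2.85 to 4.73 TPM, both in the range of Cdh15 itself or near it (0.565 to 3.90 TPM). For Myf5 the genotypes did not overlap in CPM, at 1.23 to 1.33 in WT and 0.921 to 1.16 in KO, but they did in TPM. Such non-overlap in CPM was found for 9.05% of all tested genes. The 8 markers summed to between 5.08 and 7.40 TPM in WT and between 5.55 and 6.34 TPM in KO, and the groups overlapped. Of them, 5 passed the filter, all 5 with lower estimates in KO, and edgeR called 0 (0 with an unadjusted p under 0.05, and 0 by DESeq2 or limma-voom). All reads of Cdh15 were assigned to its 1 annotated transcript, a protein-coding one of 14 exons and 3251 bases.

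The genes around Cdh15 were examined next. Cdh15 lies on chromosome 8 of GRCm39 from 123574705 to 123596048 on the plus strand. The 5 nearest tested genes on each side reach 233021 bp from it. Of these 10 genes, 7 had lower and 3 higher estimates in KO, between −0.33 and 0.37 on the log2 scale. The edgeR test called 0 of them (0 with an unadjusted p under 0.05), and DESeq2 and limma-voom called 0. The nearest gene before Cdh15 was Gm45743, a predicted gene 19086 bp away, and the log2 fold change was −0.33 (standard error 0.238, edgeR adjusted p = 0.732). The nearest after it was Gm45894, 865 bp away, with −0.31 (standard error 0.267, edgeR adjusted p = 0.785). Both had few reads. Cbfa2t3, a transcriptional corepressor, had the largest estimate of the 10, at 0.37 (standard error 0.169, edgeR adjusted p = 0.569).

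The genes whose pattern over the 7 libraries was most like that of Cdh15 were found by the root mean square difference of centred log2 CPM. Over 14883 genes with a mean of at least 1 CPM this difference had a median of 0.93. It was smallest for Lrrn1, a leucine-rich repeat membrane protein (0.25), Rab27a, a GTPase of vesicle transport (0.25), Pla2g5, a secreted phospholipase (0.25), Elapor1 (0.27) and Plin5, a protein of lipid droplets (0.27). In all 5, WT replicate 4 had the highest value of the 7 libraries and each KO library lay below the mean, as for Cdh15. The genes were picked by these same values, so this likeness follows from the choice. Rab27a, for example, read 17.4, 20.2, 28.2 and 54.4 CPM in WT and 9.73, 9.59 and 11.3 CPM in KO. Lrrn1 was far more abundant, with 89.1, 141.3, 148.3 and 182.5 CPM in WT and 41.9, 45.6 and 80.7 CPM in KO. None of the other 7 cadherins was among them.

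**Figure D4:**
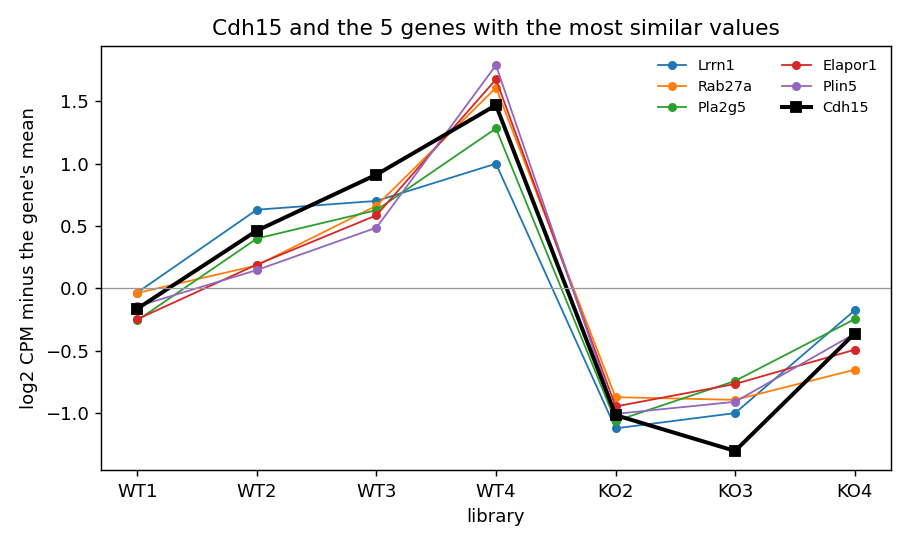
Log2 CPM minus the gene's own mean over the 7 libraries, for Cdh15 (black squares) and the 5 genes with the smallest root mean square difference from it (0.25 to 0.27). All 6 lines peak in WT replicate 4 and lie below 0 in the 3 KO libraries.

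Cdh3 was the other member whose genotypes did not overlap in CPM. It read 59.1, 44.1, 48.8 and 48.9 CPM in WT and 33.9, 36.5 and 39.6 CPM in KO. Each KO value was below each WT value, on the TPM scale as well, at 11.8 to 14.95 TPM against 15.8 to 19.1 TPM. The mean was 50.2 ± 6.35 CPM over the WT libraries (SD, n = 4) and 36.7 ± 2.83 CPM over the KO libraries (SD, n = 3), a level of 73.1% of WT. The log2 fold change was −0.45 (standard error 0.101), and leaving out 1 library at a time kept it between −0.51 and −0.36. The difference was far smaller than that of Cdh15 but was measured on 1753 to 3077 reads per library.

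Most markers of smooth muscle and of the surface epithelium had lower estimates in KO, as Cdh3 did. Some other lists shared this direction and others did not. It held for 5 of 5 theca, 7 of 8 endothelial, 5 of 5 tested skeletal muscle and 5 of 7 fibroblast markers. It held for 5 of 10 granulosa, 2 of 6 leukocyte, 1 of 5 tested glial, 1 of 3 oviduct and 0 of 8 oocyte markers. The median log2 fold change was −0.54 for surface epithelium, −0.49 for theca and −0.41 for smooth muscle. It was −0.24 for skeletal muscle, −0.13 for endothelium and −0.04 for fibroblasts. The summed level of 7 smooth muscle markers was 1649 to 1981 TPM in WT and 1173 to 1595 TPM in KO, without overlap. All 7 had lower estimates in KO, and edgeR called 0 of them (6 with an unadjusted p under 0.05, 2 called by DESeq2, Cnn1 and Des, and 0 by limma-voom). Over all tested genes, 8.94% had such a p in edgeR and 0.749% were called by DESeq2. Of 9 markers of the ovarian surface epithelium, 8 had lower estimates, and edgeR called 0 (2 with an unadjusted p under 0.05, Upk3b and Muc16, 1 called by DESeq2, Upk3b, and 0 by limma-voom). The epithelial sums overlapped, at 36.0 to 65.2 TPM in WT and 36.4 to 52.9 TPM in KO. Within WT, this sum was lowest in replicate 1, where Cdh3 was highest (19.1 TPM). It was highest in replicate 2, where Cdh3 was lowest (15.8 TPM). In KO it was highest in replicate 2, where Cdh3 was lowest (11.8 TPM). The smooth muscle sum was lowest in replicate 2 of each genotype, as Cdh3 was. The part of these cells in the Cdh3 values was not tested.

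Cdh1 lies next to Cdh3, its start 46012 bp after the end of Cdh3 on chromosome 8, and its estimate lay in the other direction. Cdh1 read 1.77, 2.25, 2.82 and 1.85 CPM in WT and 2.76, 2.50 and 2.17 CPM in KO, and the groups overlapped. Its log2 fold change was 0.19 (standard error 0.189), with 92 to 159 reads per library. The ratio of Cdh3 to Cdh1 in TPM was 24.5 ± 7.35 (SD, n = 4) in WT, from 17.5 to 33.8, and 15.2 ± 3.01 (SD, n = 3) in KO, from 12.4 to 18.4.

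Cdh2 and Cdh11, the most abundant members, had estimates close to 0. Cdh2 read 66.9, 92.9, 71.8 and 88.9 CPM in WT and 90.9, 74.4 and 91.5 CPM in KO. Its means were 80.1 ± 12.7 CPM (SD, n = 4) and 85.6 ± 9.73 CPM (SD, n = 3), and the log2 fold change was 0.10 (standard error 0.127). The granulosa sum and Cdh2 did not rank the libraries alike. KO replicate 4 was the highest on both, at 4042 TPM for the sum and 37.3 TPM for Cdh2, whereas WT replicate 1, the lowest for Cdh2 at 23.3 TPM, had the second highest sum. Cdh11 read 286.4, 223.2, 245.6 and 199.2 CPM in WT and 245.2, 252.2 and 243.0 CPM in KO. The KO libraries lay inside the WT range and differed little among themselves, with an SD of log2 CPM of 0.028. Its log2 fold change was 0.05 (standard error 0.111), and it was −0.02 without WT replicate 4. Summed over 7 markers, stromal fibroblasts ranged from 2802 to 3865 TPM in WT and from 3023 to 3341 TPM in KO.

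Cdh4, Cdh6 and Cdh13 rested on few reads, with 57 to 162 per library, much as Cdh1 did. Cdh4 read 1.44, 1.87, 1.86 and 1.30 CPM in WT and 1.06, 1.19 and 1.73 CPM in KO, and the log2 fold change was −0.28 (standard error 0.221). Cdh6 read 2.40, 2.96, 2.09 and 1.69 CPM in WT and 1.98, 1.73 and 2.38 CPM in KO, and the log2 fold change was −0.16 (standard error 0.208). For Cdh13, WT held 2.81, 2.58, 2.87 and 2.46 CPM and KO held 2.36, 2.81 and 1.97 CPM, and the log2 fold change was −0.17 (standard error 0.152). The genotypes overlapped in all 3 genes. For Cdh13, KO replicate 3 had 1.82 TPM where the other libraries had 0.867 to 1.19 TPM. About 10.5 of its reads, 7.76%, were assigned to Cdh13-207, a short transcript of 620 bases that had no reads elsewhere and that weighs more per read on the TPM scale.

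Most members were read from a single transcript. Cdh1, Cdh3, Cdh6 and Cdh15 had 100.0% of their reads on 1 protein-coding transcript, and Cdh4, Cdh11 and Cdh13 had 98.2%, 99.0% and 98.1%. Cdh2 was the exception. Its transcript Cdh2-202, of 15 exons, held 70.7% of the reads and ranged from 66.8% in KO replicate 4 to 77.4% in KO replicate 3, and the 16-exon Cdh2-201 held 29.1%. Of the 8 genes, 5 lie on chromosome 8, namely Cdh1, Cdh3, Cdh11, Cdh13 and Cdh15. None lies on chromosome 9 with Pgr.

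The proteins that cadherins work with were examined as 4 lists of 34 genes, of which 32 were tested. The edgeR test called 0 of the 32, and DESeq2 and limma-voom called 0. Estimates were lower in KO for 15 genes and higher for 17, with a median log2 fold change of 0.02. The median absolute log2 fold change was 0.10 over the 32 genes and 0.097 over all tested genes. An unadjusted p under 0.05 was found for 5 of the 32, beside 8.94% of all tested genes, and these were Jup, Snai1, Zeb1, Cdh5 and Cdh10. Snai1, a repressor of Cdh1, is named only for this and was picked after its values were seen.

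The catenins bind the cadherin tail or link it to actin. Of 11 tested, 9 had lower and 2 higher estimates in KO, with a median log2 fold change of −0.07. Beta-catenin (Ctnnb1) was the most abundant at 558.9 ± 24.3 TPM (SD, n = 7), with 759.4 ± 14.0 CPM over the WT libraries (SD, n = 4) and 735.3 ± 33.4 CPM over the KO libraries (SD, n = 3). The log2 fold change of Ctnnb1 was −0.05 (standard error 0.0618, edgeR adjusted p = 0.866). Plakoglobin (Jup), the relative of beta-catenin found also in desmosomes, had the largest estimate. It had 71.9 ± 2.77 CPM over the WT libraries (SD, n = 4) and 64.1 ± 6.23 CPM over the KO libraries (SD, n = 3), and the log2 fold change was −0.17 (standard error 0.0714, edgeR adjusted p = 0.543).

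The transcription factors known to repress Cdh1 numbered 7, with 3 lower and 4 higher estimates and a median log2 fold change of 0.02. Tcf3, an E-box binding factor, was the most abundant at 68.5 ± 6.05 TPM (SD, n = 7), and the log2 fold change was 0.10 (standard error 0.0595, edgeR adjusted p = 0.672). Zeb1 had the largest estimate, −0.23 (standard error 0.0868, edgeR adjusted p = 0.472), and Snai1 had 0.22 (standard error 0.0813, edgeR adjusted p = 0.475). All 7 were above Cdh1 itself in TPM, with means of 3.15 to 68.5 TPM.

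The nectins and afadin form a second adhesion system beside the cadherins. Of 5 genes, 1 had a lower and 4 had higher estimates, with 0 at an unadjusted p under 0.05. Nectin2 was the most abundant at 120.2 ± 7.23 TPM (SD, n = 7), and the log2 fold change was 0.08 (standard error 0.0690, edgeR adjusted p = 0.800). Nectin4 had the largest estimate, −0.14 (standard error 0.254, edgeR adjusted p = 0.914), at 0.174 TPM.

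Of 11 other classical cadherins, 9 were tested, with 2 lower and 7 higher estimates. Cdh5, of endothelial junctions, read 231.0, 226.4, 221.5 and 204.5 CPM in WT and 197.2, 182.6 and 198.7 CPM in KO. The genotypes did not overlap in CPM, but they did in TPM, with 80.8 to 90.1 TPM in WT and 71.4 to 83.1 TPM in KO. The log2 fold change of Cdh5 was −0.20 (standard error 0.0635, edgeR adjusted p = 0.397). Endothelial markers summed to 547.8 to 647.3 TPM in WT and 571.1 to 623.3 TPM in KO. Of these 8 markers, 7, Cdh5 among them, had lower estimates, with 0 called by edgeR, DESeq2 or limma-voom. In edgeR, 2 (Cdh5 and Tek) had an unadjusted p under 0.05, beside 8.94% of all tested genes. Cdh10 had the largest estimate of this list, 0.78 (standard error 0.257, edgeR adjusted p = 0.400), at 0.307 ± 0.0840 CPM over the WT libraries (SD, n = 4) and 0.529 ± 0.0540 CPM over the KO libraries (SD, n = 3), or 11 to 34 reads per library. Cdh24 had 10.9 ± 1.30 CPM over the WT libraries (SD, n = 4) and 11.2 ± 0.650 CPM over the KO libraries (SD, n = 3). The brain-enriched or glial cadherins Cdh8, Cdh9, Cdh12, Cdh18, Cdh19 and Cdh20 had means of at most 0.327 CPM in both genotypes, and Cdh7 and Cdh22 had at most 2 reads in any library and were not tested.

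**Figure D5:**
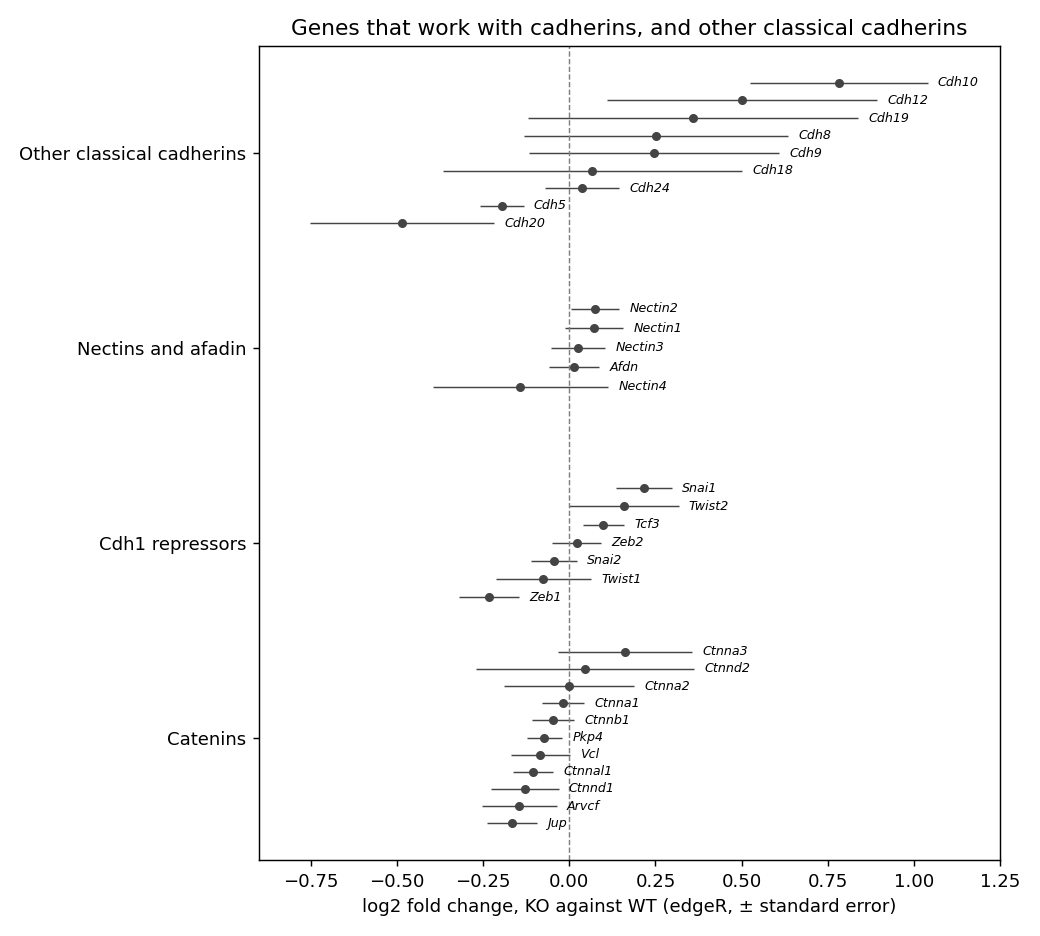
Log2 fold change of KO against WT from edgeR (point, with a bar of 1 standard error) for the 32 tested genes of 4 lists, the catenins, the Cdh1 repressors, the nectins with afadin, and the other classical cadherins. The catenins lie between −0.17 and 0.16, and the widest bars belong to cadherins with few reads, such as Cdh18 and Cdh19.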

How the data were processed

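mRNA of 4 WT and 3 KO pools of granulosa cell-depleted ovary was sequenced as stranded, paired-end 100 bp libraries. The authors quantified transcripts with Salmon (its version is not given in the sources used here) against GENCODE M26 on GRCm39. They deposited, per transcript and library, estimated counts and TPM, the latter scaled by effective length and library total. Groups and replicate numbers came from the labels. Deviations of same-numbered WT and KO pools from their group means correlated at −0.013, 0.106 and 0.085. For pools with unlike numbers the correlations ran from −0.131 to 0.068, and the labels name no pairing.

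Here, 137570 of 139225 transcripts (98.8%) were matched by Ensembl identifier to genes of GENCODE M39 on GRCm39, with 99.37% to 99.4% of reads, and estimated counts were summed per gene and rounded. Genotypes were compared with edgeR 4.0.16 in R 4.3.3 (TMM, filterByExpr, quasi-likelihood, common biological coefficient of variation 0.127), with Benjamini-Hochberg adjustment over 19233 genes. Standard errors are the absolute log2 fold change over the square root of F. Depth was 47.4 M to 63.4 M reads per library, so counting error matters mainly for genes with few reads. DESeq2 1.42.0, limma-voom (limma 3.58.1) and other settings were alternatives. The code was tested on simulated data. Levels between genes were compared in TPM with a pseudocount of 0.01. Likeness to Cdh15 used log2 CPM with a prior count of 2.

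The members, the gene lists and the tests were chosen with earlier results of these data known. Named were all 8 cadherins and the other classical cadherins that passed the filter. Of each partner list, the gene with the largest absolute log2 fold change and the gene with the highest TPM were named. Of the neighbours, the nearest on each side and the largest estimate were named, beside the 5 genes most like Cdh15 and Pgr. Promoters came from RefSeq (GRCm38.p6).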

Additional observations from a re-analysis of the deposited data

How the results depend on the processing

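The log2 fold change of Cdh15 kept its direction in all 14 alternatives and moved by less than the spread between replicates in each, from −1.94 to −1.30. Leaving out 1 library at a time gave both ends of that range. The median of the other 7 members, −0.16, became 0.045 with transcript length offsets, where Cdh13 became 0.06 through the short transcript of KO replicate 3. Single estimates changed sign only there and for Cdh11 without WT replicate 4 (−0.02). The number of genes called over the whole table depended strongly on the method. It was 2 with edgeR, 144 with DESeq2, 36 without a filter, 6 with at least 10 counts in every library, 2 with limma-voom and 1 to 4 when 1 library was left out. The counts of called partner genes and of called neighbours of Cdh15 stayed at 0 in all 14 alternatives. For levels, 5 neighbouring pairs differed in all 9 alternatives, and the order of Cdh6 and Cdh4 turned without WT replicate 2. No length correction was applied in edgeR's count comparison, and genes with under 200 reads, 5 of the 8 members in most libraries, were measured with wide counting error.

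With the replicate number as a block, which left WT replicate 1 without a partner, the log2 fold change of Cdh15 was −1.84, the median of the other members was −0.12 and 26 genes were called. The numbers only share a label here. Deviations of same-numbered pools correlated at no more than 0.106, and those of pools with unlike numbers reached −0.131.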

Other observations

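Markers of further cell types that the tissue could hold were counted beside the cadherins. All 8 oocyte markers had higher estimates in KO, with summed levels of 210.5 to 299.1 TPM in WT and 267.7 to 374.9 TPM in KO. Of them, edgeR, DESeq2 and limma-voom called 0. In edgeR, 2 (Zp2 and Nlrp5) had an unadjusted p under 0.05, beside 8.94% of all tested genes. Leukocyte markers summed to 32.4 to 38.1 TPM in WT and 31.9 to 39.7 TPM in KO. Oviduct markers summed to 2.10 to 3.01 TPM in WT and 1.95 to 3.39 TPM in KO. The genotypes overlapped in each of these sums.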
